A study of Drosophila melanogaster with 42 samples.

Results

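The 10 genes described here encode proteins of developing or mature fly sperm. They were taken by gene symbol from the 4 deposited expression tables, each of which lists 15061 genes, and all 10 symbols were present in every table. Of the members, 4 are protamine-like genes whose products package sperm DNA, namely Mst35Ba, Mst35Bb, Mst77F and Tpl94D. The other 6 are Mst structural genes, namely Mst84Da, Mst84Db, Mst84Dc, Mst87F, Mst98Ca and Mst98Cb.

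RNA was sequenced from adult male Drosophila melanogaster offspring, with 50 flies in each library. Their fathers were dATF-2KO or w1118 males, that is, males lacking the stress-responsive transcription factor dATF-2 or males of the white-eyed laboratory strain. The fathers were either held under restraint 3 times for 10 h or left unrestrained, and were then crossed to w1118 females. According to the study, control males could move freely but were kept without medium. The sons themselves were not restrained. Sons of dATF-2KO fathers could themselves carry the deletion from their father, so father's genotype and the sons' own genotype cannot be told apart. Heads and bodies without heads were sequenced separately. With dATF-2KO fathers there were 5 restrained and 5 unrestrained body libraries and 5 restrained and 5 unrestrained head libraries. With w1118 fathers there were 5 restrained and 5 unrestrained head libraries, and the labels list 6 restrained and 6 unrestrained body libraries. The 12 library columns of that last table could not be matched to samples, so only the authors' mean of its restrained group was used. The sons' age is given as 5 to 6 days in the sample labels, 6 to 7 days in the series description and 5 days in the study's methods. The series description calls the libraries biological replicates, and the study's statistics section speaks in general of independent samples. Whether separate crosses gave the separate pools is not stated, so the p-values describe the spread among pools.

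During the last steps of sperm formation in Drosophila, histones are removed from DNA and replaced first by transition proteins and then by protamines. Mst35Ba and Mst35Bb are neighbouring copies that encode the protamines A and B, Mst77F encodes a linker-histone-like protein of sperm chromatin, and Tpl94D encodes a transition protein that is present only for a short time. The Mst84D, Mst87F and Mst98C genes belong to a family of short proteins rich in cysteine, glycine and proline that are found in the sperm tail. Transcripts of these genes are made in spermatocytes, stored, and translated only after meiosis, so in whole flies they report the presence of testis tissue.

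In the dm3 coordinates of the tables, Mst35Ba lies at chr2L:14879048-14881652 and Mst35Bb at chr2L:14882101-14883715. Mst77F has a locus of chr3L:20809218-20829148, which it shares with Pka-R1, a kinase subunit gene on the opposite strand. The other 7 members lie on chromosome arm 3R. Tpl94D is at chr3R:18792006-18793564. Mst84Dc (chr3R:3189976-3190395), Mst84Db (chr3R:3190882-3191349) and Mst84Da (chr3R:3191572-3195027) lie side by side, and the Mst84Da locus also holds MstProx on the opposite strand. Mst87F is at chr3R:9652873-9653432. Mst98Ca (chr3R:24117060-24118378) and Mst98Cb (chr3R:24118520-24119585) are neighbours. Strands and overlaps are from the BDGP6 annotation. How the counting treated strand is not given in the sources used here, so values of Mst77F and Mst84Da are uncertain to the extent that reads could be split with their partners. The same holds for Mst87F, which overlaps the antisense gene lncRNA:CR43300 in BDGP6. Paralogous pairs such as Mst35Ba with Mst35Bb, and Mst77F with its Mst77Y copies (6 genes and pseudogenes in BDGP6, 5 of them on the Y chromosome and 0 in the tables), carry the same reservation.

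Before the members are compared, the tissues were checked with marker lists. Summed FPKM (fragments scaled to transcript length and to the size of the library) of 15 photoreceptor and neuron genes was 35733 or more in every head library of the dATF-2KO group, against 72.1 to 87.2 in restrained-father bodies. Of 18 testis markers, 16 had a mean of at least 1 FPKM in bodies and 7 did in heads of the dATF-2KO group, where comr and nht were at 0 in every library. Library sums of the testis markers in bodies were 2003 to 2447 FPKM with restrained fathers and 1935 to 2471 FPKM with unrestrained fathers. One restrained-father sample stood apart. In restrained body replicate 3 of the dATF-2KO group the 12 egg and yolk genes summed to 4951 FPKM, against 11.4 in the lowest restrained library, and restrained head replicate 3 had 1218 FPKM of them.

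In bodies of sons of dATF-2KO fathers, 9 of the 10 members were among the most abundant transcripts. Mst87F was the highest, ranking 59th of 15061 genes with restrained fathers and 58th with unrestrained fathers. Its levels were 1694, 1780, 1569, 2022 and 1903 FPKM in the 5 restrained-father libraries, against 1816, 1945, 1481, 1876 and 1666 FPKM in the 5 unrestrained-father libraries. The groups covered nearly the same range. Mst84Db followed with 1561 ± 153 FPKM (SD, n = 5) with restrained fathers and 1552 ± 191 FPKM (SD, n = 5) with unrestrained fathers. Both genes encode sperm-tail proteins.

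The order of the levels was Mst87F, Mst84Db, Mst84Dc, Mst84Da, Mst77F, Mst98Ca, Mst35Bb, Mst98Cb, Mst35Ba and Tpl94D, and every step of it held within each of the 10 libraries. Across libraries the ranges of neighbours in this order overlapped for 7 of the 9 steps, so a level taken from one library did not always separate a gene from its neighbour in another. The gaps were below Mst98Ca, whose lowest library had 600.3 FPKM against 312.9 FPKM in the highest library of Mst35Bb, and above Tpl94D. FPKM is a level per transcript length, and for transcripts as short as those of Mst84Db and Mst84Dc it depends on how fragment length was handled upstream.

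The protamine-like genes were therefore not one level class. Mst77F, the linker-histone-like gene, had 728, 751, 690, 829 and 793 FPKM with restrained fathers, against 808, 804, 656, 805 and 765 FPKM with unrestrained fathers. The protamine genes were lower. Mst35Bb averaged 271 ± 24.1 FPKM with restrained fathers and 286 ± 31.7 FPKM with unrestrained fathers (SD, n = 5 each). Mst35Ba averaged 199 ± 15.9 FPKM and 219 ± 23.7 FPKM in the same order of groups, restrained and then unrestrained (SD, n = 5 each). Tpl94D had only 6.84 ± 0.592 FPKM with restrained fathers and 6.41 ± 0.761 FPKM with unrestrained fathers (SD, n = 5 each), a rank of 9227 and 9383. Within the Mst structural genes, Mst98Ca averaged 679 ± 46.1 FPKM with restrained fathers and 696 ± 66.5 FPKM with unrestrained fathers, and its neighbour Mst98Cb averaged 235 ± 19.4 FPKM and 253 ± 22.1 FPKM in those groups (SD, n = 5 each).

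**Figure D1:**
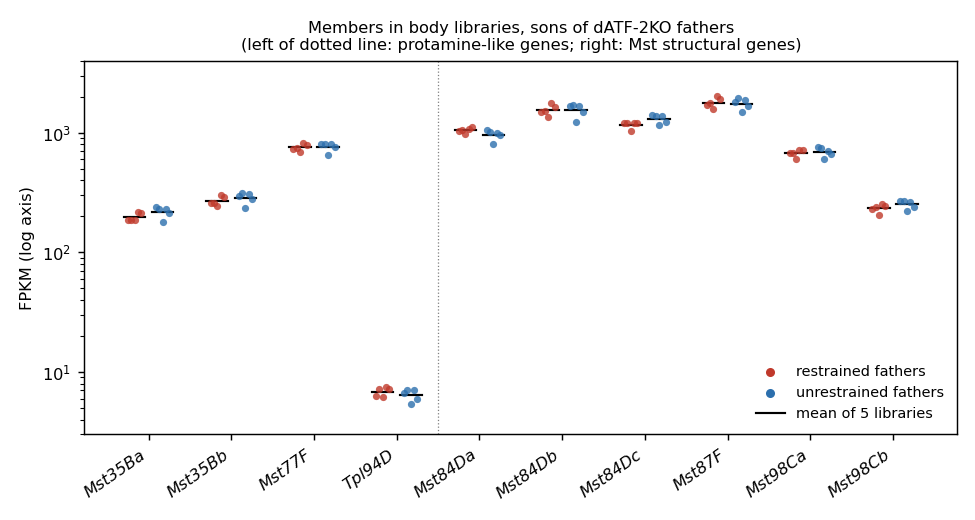
FPKM of the 10 members in bodies of sons of dATF-2KO fathers on a log axis, with 1 point for each library, restrained fathers left and unrestrained fathers right, and a line at the mean of 5 libraries. The members other than Tpl94D sit between 180.5 and 2022 FPKM, Tpl94D sits between 5.36 and 7.46 FPKM, and the points of both groups overlap for every member.

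Paternal restraint was followed by no called difference in any of the 10 members in bodies of sons of dATF-2KO fathers. A call needed both an adjusted p under 0.05 and a 1.4-fold difference or more in limma on log2(FPKM + 0.5), with Benjamini-Hochberg adjustment over 12363 genes. By this rule 0 of 10 members were called, where 0.146% of all genes were. At an unadjusted p under 0.05 there was 1 member, Mst84Dc, which was lower with restrained fathers. Of all genes 7.33% passed this limit, and 4.26% passed it with a lower value. The library groups of all 10 members overlapped, as did those of all but 2% of genes. The members' log2 changes ran from -0.16 to 0.14 with a median of -0.02, beside a median of -0.02 over all genes, and 6 of the 10 were below 0, against 57.9% of all genes. For every member the 95% interval of the change stayed inside 1.4-fold in either direction. Without restrained replicate 3, the library with egg and yolk transcripts, 0 of 10 members were called as well.

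The contrast of the classes gave the same picture. The 4 protamine-like genes had a median log2 change of -0.05, with values of -0.14 (SE 0.08) for Mst35Ba, -0.08 (SE 0.09) for Mst35Bb, -0.02 (SE 0.07) for Mst77F and 0.09 (SE 0.09) for Tpl94D. The 6 Mst structural genes had a median of -0.01. Among these, Mst84Db, Mst87F, Mst98Ca and Mst98Cb had log2 changes between -0.10 and 0.03. The largest values in both directions belonged to Mst84Dc and Mst84Da, which lie on either side of Mst84Db in one gene cluster. Summed over each class, the protamine-like genes had 18.5 to 19.6% of the FPKM of the Mst structural genes with restrained fathers and 19.2 to 20.2% with unrestrained fathers.

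Mst84Dc had 1212, 1207, 1027, 1205 and 1219 FPKM with restrained fathers, against 1411, 1380, 1159, 1377 and 1230 FPKM with unrestrained fathers. The groups overlapped, since unrestrained replicate 3 lay below 4 of the restrained-father libraries, and restrained replicate 3 was the lowest of all 10. The log2 change was -0.16 (SE 0.07), with a limma p of 0.0415 and an adjusted p of 0.655 over all genes. Mst84Da had 1039, 1065, 979, 1079 and 1130 FPKM with restrained fathers, against 1050, 1017, 813, 990 and 953 FPKM with unrestrained fathers. Its log2 change was 0.14 (SE 0.07), with a limma p of 0.0687 and an adjusted p of 0.706. Neither change was called.

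Levels of the members moved together from library to library. Unrestrained replicate 3 was the lowest of the 10 libraries for 8 of the members, with restrained replicate 3 lowest for the other two, Mst84Dc and Mst98Cb, and it also had the lowest testis marker sum, 1935 FPKM. Over the 10 libraries the 36 pairs of members without Mst84Da had a median Pearson r of 0.88, and the 9 pairs with Mst84Da one of 0.70. Without unrestrained replicate 3 these medians were 0.84 and 0.37. These correlations are descriptions over libraries that share tissue composition and scaling. In whole bodies, fewer germ cells and less RNA per germ cell cannot be told apart.

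Dividing the members by each other within a library takes out what they share. This comparison was chosen after the values were seen, so it is described without a test. Mst84Da stood at 85.7 to 95.3% of Mst84Dc with restrained fathers (median 89.6%), against 70.2 to 77.4% with unrestrained fathers (median 73.7%), with no overlap between the groups. Mst77F stood at 70.1 to 76.8% of Mst84Da with restrained fathers and at 77.0 to 81.3% with unrestrained fathers. Mst35Ba stood at 25.0 to 27.0% of Mst77F with restrained fathers and at 27.5 to 29.9% with unrestrained fathers. Other pairs overlapped. Mst84Da stood at 61.1 to 71.8% of Mst84Db with restrained fathers and at 59.6 to 65.4% with unrestrained fathers, and Mst35Ba at 72.3 to 75.9% of Mst35Bb with restrained fathers and at 73.3 to 81.5% with unrestrained fathers.

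Of all 45 pairs of members, 16 had ratios that did not overlap between the groups, which is 35.6%, where 1.92% of the 72474780 pairs of 12040 genes did that averaged at least 1 FPKM and were above 0 in each library. Of those 16 pairs, 6 held Mst84Da, 4 held Mst84Dc and 7 held neither. Among pairs of genes of at least 200 FPKM the share was 7.21%. For the 9 members at that level it was 33.3% (12 of 36 pairs). The 9 other sperm, cup and comet genes at that level had 8.33% (3 of 36 pairs), and all 36 of those list genes, whatever their level, had 4.13%. Pairs share genes and so do not count as separate observations, and the median ratios of non-overlapping pairs differed by 1.24-fold at most.

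**Figure D2:**
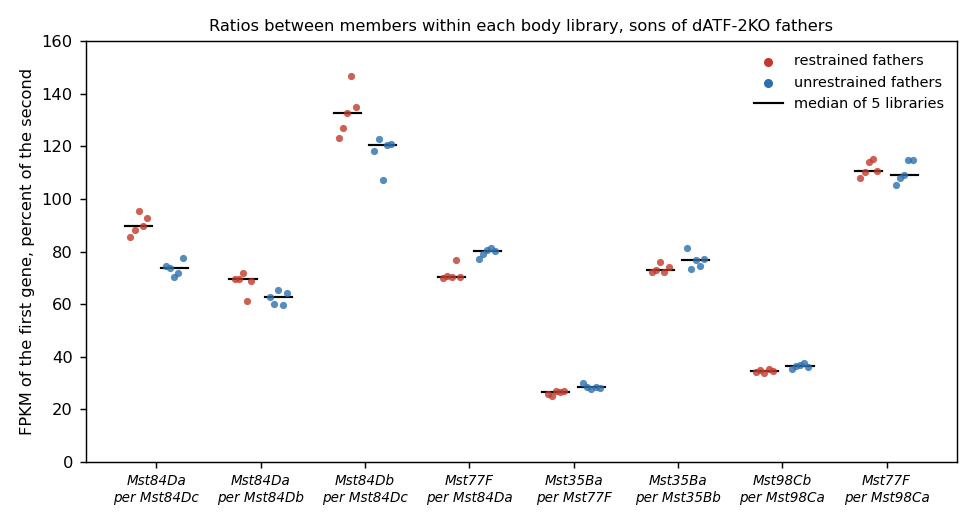
Ratios of 8 pairs of members within each body library of sons of dATF-2KO fathers, as the percent that the FPKM of the first gene makes of the second, with restrained fathers left, unrestrained fathers right and a line at the median of 5 libraries. The pair Mst84Da per Mst84Dc shows the widest separation of those drawn, with medians of 89.6% and 73.7%.

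The other lists of sperm, testis and chromatin genes, some of them also expressed outside the testis, showed no called change in these bodies either. Of 18 further sperm chromatin and sperm structural genes, 0 were called in either direction, and their median log2 change was 0.02. Among them, Mst84Dd, the remaining gene of the Mst84D cluster, had 726 ± 58.7 FPKM with restrained fathers and 786 ± 80.2 FPKM with unrestrained fathers (SD, n = 5 each; log2 change -0.11, limma adjusted p = 0.821). The sperm-tail genes dj and djl had log2 changes of 0.07 and 0.12. Of 18 cup and comet genes, which are transcribed after meiosis, 0 were called, with a median of -0.02. The 6 genes of protamine loading and removal gave 0 calls and a median of 0.09, and 6 histone genes gave 0 calls and a median of 0.14. The loading and removal genes summed to 739 FPKM in restrained replicate 3, the library with egg and yolk transcripts. The median restrained library had 365 FPKM of them. Among them, dhd had 59.5 ± 127 FPKM with restrained fathers and 3.18 ± 0.634 FPKM with unrestrained fathers (SD, n = 5 each). The part of restrained replicate 3 in these medians was not tested. Of 16 testis markers 0 were called, with a median of -0.04. By unadjusted limma p under 0.05, none of these 5 lists had a member in either direction.

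The male accessory gland list held called genes. Of its 19 seminal protein genes, 2 rose after paternal restraint, where 0.121% of all genes were called higher. The list was chosen with earlier results of these data known, so the 2 shares are only a description. Acp98AB averaged 12145 ± 457 FPKM with restrained fathers and 6528 ± 554 FPKM with unrestrained fathers (SD, n = 5 each; log2 change 0.90, limma adjusted p = 0.000131). The list as a whole did not move one way. Its median log2 change was -0.05, 11 of the 19 genes were below 0, and at an unadjusted limma p under 0.05 there were 5 higher and 5 lower genes. Mst57Db, which shares the Mst name of male-specific transcripts but encodes a secreted gland protein, had a log2 change of 0.63 (limma adjusted p = 0.00461). FPKM is a share of the library. The members made 0.667 to 0.756% of all FPKM with restrained fathers and 0.650 to 0.808% with unrestrained fathers.

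Genes whose pattern over the 10 body libraries was most like each class were sought among 8127 genes of at least 10 FPKM. The mean of the protamine-like genes was followed most closely by Pof, whose product binds the fourth chromosome (Pearson r = 0.993), CG11068, Adgf-E, CG6332 and S-Lap1, a leucyl aminopeptidase of sperm. The mean of the Mst structural genes was followed most closely by CG12860 (r = 0.994), CG32119, CG30278, CG14355 and S-Lap4. All these r values were 0.989 or higher over 10 libraries, whose testis content they share.

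With w1118 fathers, the authors' mean FPKM of restrained-father bodies can be set beside the restrained-father bodies of the dATF-2KO group. The 2 tables were scaled separately and the w1118 value has no spread, so no test was made, and father's genotype and table cannot be told apart. The study reports many genes changed by paternal restraint in bodies with w1118 fathers. No unrestrained w1118 body value was available, so such a change in the w1118 mean cannot be told apart from them either. All 10 members were higher in the dATF-2KO group than in the authors' w1118 mean, where the median ratio over 12010 genes was 0.991. The excess was not shared evenly. Mst84Da had 1058 FPKM against the authors' mean of 273 FPKM, a ratio of 3.88 that 0.708% of genes reached. Mst35Bb had 271 against 90.0 FPKM (ratio 3.01, reached by 1.81% of genes), and Mst35Ba had 199 against 71.5 FPKM (ratio 2.78, reached by 2.36% of genes).

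The remaining members had smaller ratios, which were 1.81 for Mst98Cb, 1.64 for Mst87F, 1.54 for Tpl94D, 1.37 for Mst77F, 1.37 for Mst98Ca, 1.22 for Mst84Db and 1.13 for Mst84Dc. The ratios did not follow the classes, since Mst84Da and Mst84Dc belong to one gene cluster and Mst35Bb and Mst77F to one functional class. Relative to Mst84Db within its own table, Mst84Da stood at 67.8% with restrained dATF-2KO fathers and 62.2% with unrestrained dATF-2KO fathers, against 21.4% with restrained w1118 fathers. Mst35Ba stood at 12.7% and 14.1% of Mst84Db with restrained and unrestrained dATF-2KO fathers, against 5.61% with restrained w1118 fathers. Mst77F stood at 48.6%, 49.5% and 43.3% in those groups. The gap in Mst84Da and the protamines was thus present with and without paternal restraint on the dATF-2KO side. The 18 further sperm genes had a median ratio of 1.98, the 18 cup and comet genes 1.77 and 16 testis markers 1.29, while the 19 accessory gland genes had 0.869. Ratios above that of Mst84Da occurred in these lists. The highest were 4.36 among the further sperm genes, 4.06 among the cup and comet genes and 4.51 among the testis markers. The part of testis content in the members' ratios was not tested.

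**Figure D3:**
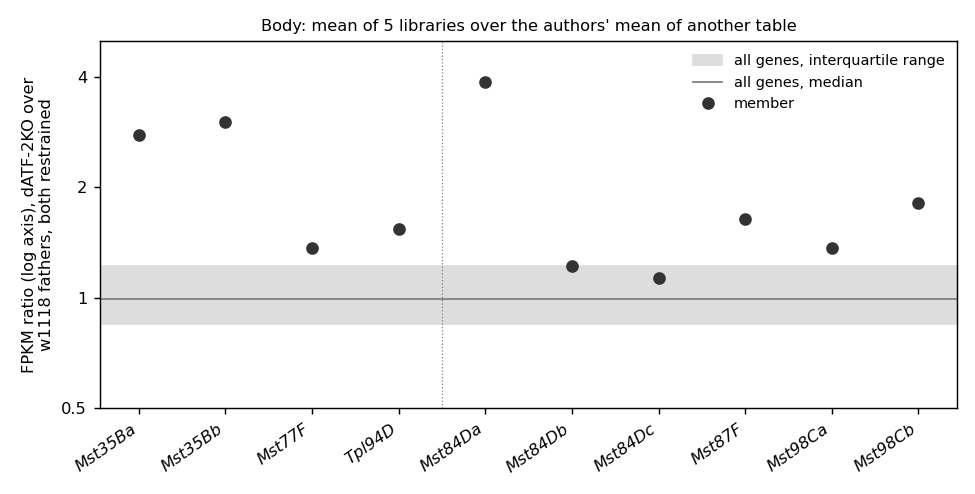
Ratio of the mean FPKM of 5 restrained-father bodies of the dATF-2KO group over the authors' mean FPKM of restrained-father bodies of the w1118 group, on a log axis, for the 10 members (points), with the median of 12010 genes (line, 0.991) and their interquartile range (band, 0.847 to 1.22). Mst84Da, Mst35Bb and Mst35Ba lie highest, and Mst84Db lies at the edge of the band and Mst84Dc inside it.

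Heads held almost none of these transcripts. With dATF-2KO fathers, head levels were a median of 0.0846% of body levels over the 10 members with restrained fathers and 0.0784% with unrestrained fathers, while genes of at least 1 FPKM in bodies had medians of 78.4% and 80.1%. The other genes of sperm formation were similarly scarce, with medians of 0.111% and 0.147% for the 18 further sperm genes and of 0.180% and 0.172% for the 18 cup and comet genes, with restrained and unrestrained fathers. The testis markers, which include genes with higher head levels such as bol, had medians of 4.05% with restrained fathers and 3.76% with unrestrained fathers. By class, the protamine-like genes had medians of 0.135% and 0.137% with restrained and unrestrained fathers, and the Mst structural genes 0.0777% and 0.0749%. Mst77F, at 0.220% with restrained fathers and 0.199% with unrestrained fathers, had the highest share of any member with restrained fathers, and its partner Pka-R1 was at 61.7 to 66.3 FPKM in those heads. Head and body tables were scaled separately, so these shares are descriptions.

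The head values were small enough to be read as single fragments. For 9 members, every head value was a whole multiple of its library's step within 0.02, the step being what 1 fragment is worth in FPKM. The smallest step of the w1118 table over that of the dATF-2KO table was 1.26 for each of the 9. Mst84Dc gave no such step. The 9 members together had 28, 54, 47, 88 and 159 fragments in the 5 restrained-father head libraries of the dATF-2KO group, against 65, 36, 52, 72 and 48 in the unrestrained-father ones. With w1118 fathers they had 85, 42, 84, 96 and 120 fragments with restrained fathers, against 83, 53, 116, 108 and 245 with unrestrained fathers. The highest count was thus in an unrestrained-father library. These counts are not scaled for depth. The step varied by up to 1.67-fold among the dATF-2KO head libraries, and it was smallest, and depth so highest, in restrained replicates 4 and 5, at 0.709 and 0.679 of that in unrestrained replicate 1. Tpl94D had 4 fragments in the 10 head libraries of each table and was listed at 0 in 7 of them. A count of 0 in a library allows up to 3 fragments, and these limits cover counting error only.

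With w1118 fathers, 6 members had a mean of at least 1 FPKM in heads and were tested, and 0 were called by limma, where 0.0907% of 9924 genes were. At an unadjusted p under 0.05 there were also 0, where 15.7% of all genes passed. All 6 changes were below 0, as were 54.9% of all genes. Mst87F had 1.61, 0.711, 1.58, 4.56 and 2.81 FPKM with restrained fathers, against 1.88, 1.24, 3.83, 1.83 and 6.43 FPKM with unrestrained fathers. The groups overlapped, as they did for all 10 members and for all but 5.42% of genes, and the highest value came from unrestrained replicate 5. The log2 change was -0.34 (SE 0.45, limma adjusted p = 0.768), with a 95% interval of -1.34 to 0.66. Mst84Db and Mst84Da had the lowest changes, -0.60 (SE 0.56) and -0.56 (SE 0.40). Mst77F, the only protamine-like gene tested, had -0.19 (SE 0.26).

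Unrestrained replicate 5 of the w1118 heads was the highest library of its group for 9 of the 10 members. It was also the highest of all 10 w1118 head libraries for some other testis and sperm genes, named after their values were seen. The sperm gene loopin-1 had 3.64 FPKM there against 1.92 FPKM in the next library, and the testis tubulin gene betaTub85D had 2.94 against 1.87 FPKM. Other testis markers did not share this. Fzo reached 1.67 FPKM in a restrained-father library against 1.49 FPKM at most with unrestrained fathers, and Rbp4 0.788 against 0.607 FPKM. The sum of the testis markers, to which bol gave most, was 86.4 FPKM in unrestrained replicate 5 and 88.1 FPKM in restrained replicate 5. One fragment was worth the same within 1.18-fold in all w1118 head libraries. Without unrestrained replicate 5 the changes of Mst77F and Mst87F were -0.01 and -0.05, and that of Mst84Dc was 0.00049. Those of Mst84Da and Mst84Db were then -0.38 and -0.33, and Mst98Ca fell under the mean for testing.

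With dATF-2KO fathers, 3 members were tested in heads and 0 were called, where 0.01% of 9975 genes were, and 0 had an unadjusted limma p under 0.05, where 10.4% of all genes did. Mst77F had 1.31, 1.42, 1.14, 1.61 and 2.86 FPKM with restrained fathers, against 1.95, 1.48, 1.32, 1.96 and 0.931 FPKM with unrestrained fathers, a log2 change of 0.07 (SE 0.22). The groups overlapped, as they did for all 10 members and for all but 2.23% of genes. Mst87F had a log2 change of 0.18 (SE 0.24) and Mst84Db one of -0.12 (SE 0.47), with limma adjusted p values of 0.842 and 0.961. Mst84Da, below the mean for testing, had 0, 0.345, 0.711, 0 and 0.719 FPKM with restrained fathers, against 1.06, 0, 1.35, 1.001 and 1.60 FPKM with unrestrained fathers. These values stand for 0, 1, 2, 0 and 3 fragments with restrained fathers, against 3, 0, 4, 3 and 4 fragments with unrestrained fathers.

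**Figure D4:**
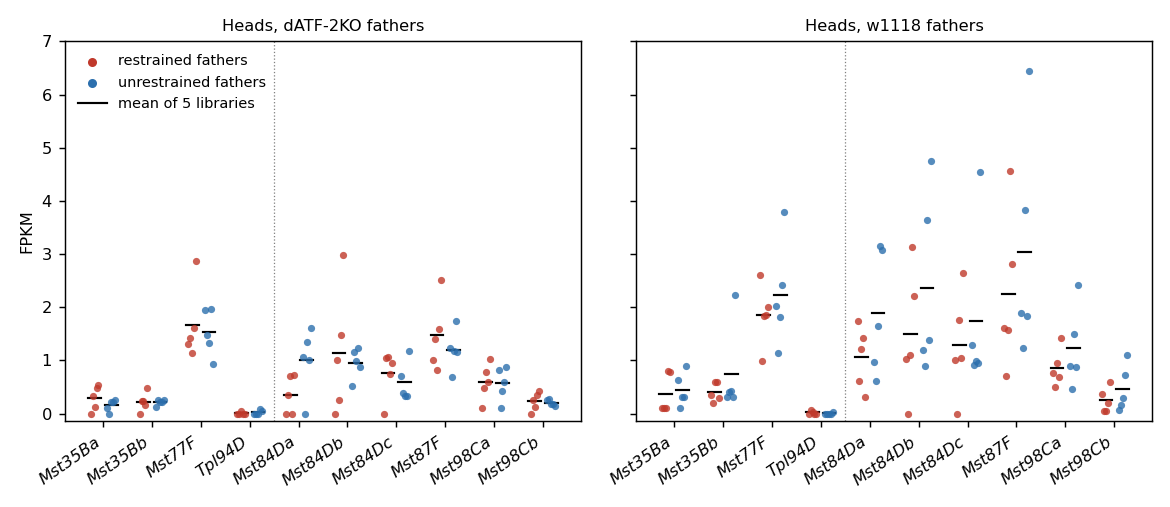
FPKM of the 10 members in heads, with dATF-2KO fathers in the left panel and w1118 fathers in the right panel, 1 point for each library, restrained fathers left and unrestrained fathers right, and a line at the mean of 5 libraries. All values lie at or below 6.43 FPKM, the value of Mst87F in unrestrained replicate 5 of the w1118 group, and the groups overlap for every member.

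Whether the change in heads after paternal restraint differed with the father's genotype was tested as an interaction over both head tables. Of the 5 members tested, 0 were called by limma, where 0% of 9982 genes were (0 genes). At an unadjusted p under 0.05 there were 0 members, where 11.5% of all genes passed. The difference, change with dATF-2KO fathers minus change with w1118 fathers, was 0.26 (SE 0.35) for Mst77F, -0.21 (SE 0.61) for Mst84Da, 0.48 (SE 0.76) for Mst84Db, 0.51 (SE 0.65) for Mst84Dc and 0.52 (SE 0.53) for Mst87F. Their adjusted p values were 0.772 to 0.934, and every 95% interval included 0. For Mst84Db the interval ran from -1.12 to 2.08, so sizeable differences in either direction could not be resolved at these fragment counts.

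**Figure D5:**
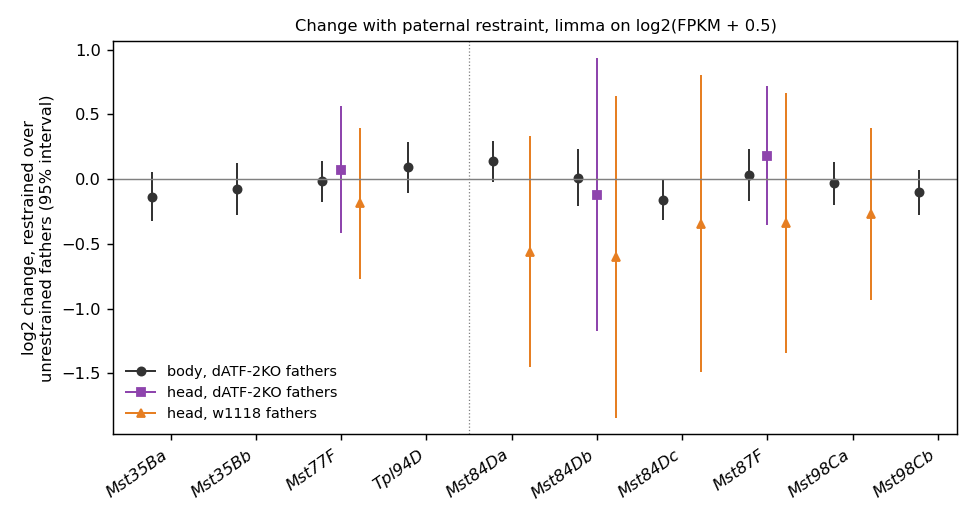
Log2 change of each tested member with paternal restraint, restrained over unrestrained fathers, with its 95% interval from limma, for bodies with dATF-2KO fathers (10 members), heads with dATF-2KO fathers (3 members) and heads with w1118 fathers (6 members). The body intervals are narrow and lie between -0.32 and 0.29, and the head intervals span more than the body intervals for every member shown in both.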

How the data were processed

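RNA was sequenced from poly(A)-selected RNA of pooled male offspring. The study's methods and the sample labels name different library kits. The deposited values are FPKM in 4 tables, made by the authors after alignment to dm3. Their methods give TopHat as the aligner. CASAVA, TopHat2, Cufflinks and Cuffnorm are listed in the submitters' processing notes, with no version given. Each table was scaled on its own, so groups were tested only within a table, apart from the interaction over both head tables. The study's methods give one approximate read number for all libraries. The depth of each library is not in the files used, and relative depth in heads was read from the fragment steps. The deposited tables also hold the authors' ratios, p-values and q-values, which were not used, and 12 columns whose names match no sample, which were not used either. The test planned for w1118 bodies could therefore not be run.

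Genes whose mean in a table reached 1 FPKM were tested with limma 3.58.1 in R 4.3.3 on log2(FPKM + 0.5) with a mean-variance trend and Benjamini-Hochberg adjustment over the table. A fold change on this scale understates the change of low genes. Fits were tested on simulated data. All 10 members are named, with up to 4 genes of smallest adjusted p in bodies for each of 10 further lists, and the 5 genes most correlated with each class. Members and lists were chosen with earlier results of these data known. Alternatives were other pseudocounts and filters, scaling, library weights, covariates, replicate blocks and leaving out each library. Sequences of the members were not used here. Python 3.11.15 with pandas 2.3.3 was used for descriptive values.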

Additional observations from a re-analysis of the deposited data

Results flagged for a closer look

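Values were set against Dixon's critical value of 0.71 for 5 samples in 78 groups of 5 libraries. In 9 of them the highest or lowest library was past it, where chance gives about 1 in 20. The groups share libraries, and the sums and ratios reuse the values of the members. They are thus not separate observations, and the 2 shares are only a description. In w1118 heads, unrestrained replicate 5 stood above its group for Mst35Bb (2.22 FPKM, group median 0.399), Mst84Dc (4.54 FPKM, median 0.989), Tpl94D (0.0367 FPKM, median 0, which is 1 fragment against 0 in the others and so passes by construction) and the sum of the protamine-like genes (6.93 FPKM, median 2.97). In dATF-2KO heads, Mst77F was at 2.86 FPKM in restrained replicate 5 (median 1.42), Tpl94D at 0.0424 FPKM in restrained replicate 3 (median 0, likewise 1 fragment against 0), and the protamine-like genes made 118% of the FPKM of the Mst structural genes in restrained replicate 1 (median 44.9%), the library in which 7 of the 10 members were listed at 0. In bodies of sons of dATF-2KO fathers, Mst84Dc was at 1027 FPKM in restrained replicate 3 (median 1207), the library with egg and yolk transcripts, and Mst77F at 656 FPKM in unrestrained replicate 3 (median 804).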

How the results depend on the processing

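The count of called members was 0 in bodies under all 12 other settings, in each head table under 11 and in the heads interaction under 8, and in all fits that left out a library (10 for each table, 20 for the interaction). With a minimum mean of 5 FPKM no member was left to test in heads, so this setting gives no value there. With the replicate number as a block it was also 0 in each of them. Same-numbered libraries did not deviate together (correlations of -0.12 to 0.14), so the numbers were not taken to pair the samples. The signs of small, uncalled log2 changes did depend on the setting, and the cause was not tested. In bodies with dATF-2KO fathers, Mst77F was at 0.0027 with scaling by the median ratio and 0.0087 with testis markers as a covariate, and Mst84Db at -0.0068 with library weights. In heads with dATF-2KO fathers, Mst84Db was at 0.0014 with library weights and Mst77F at -0.093 with testis markers as a covariate. Leaving out 1 library gave ranges of -0.072 to 0.017 for Mst77F, -0.065 to 0.060 for Mst84Db, -0.029 to 0.078 for Mst87F and -0.084 to 0.0090 for Mst98Ca in bodies, with the lowest of each without unrestrained replicate 3 and the highest without restrained replicate 3. In dATF-2KO heads the ranges were -0.096 to 0.16 for Mst77F and -0.27 to 0.23 for Mst84Db, and in w1118 heads -0.60 to 0.059 for Mst84Dc. In heads, the fragments behind the values limit what can be detected, and most protamine-like genes fell under the level for testing.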
